A study of Mus musculus with 12 samples.

Results

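Mouse embryonic fibroblasts (MEFs) lacking the transcription factor XBP1 were compared after 24 h in 2 ug/mL tunicamycin and without treatment. The samples were chosen by their labels, XBP1KO_Tun_24hr against XBP1KO_UT, with 2 arrays in each group, and make up 4 of the 12 arrays of the study. The other arrays, which share the estimate of the spread, came from knockout MEFs at 12 h of tunicamycin and from wild type MEFs at 24 h, at 12 h and untreated, 2 arrays each. All cells were of the C57BL/6 background and were grown in the same medium. The labels describe the replicates as separate experiments. They name neither the allele, nor the number of embryos behind the cells, nor a vehicle for the untreated cells, so the p-values below measure the spread between these arrays. The arrays carry probes for microRNAs (miRNAs) and none for the Xbp1 mRNA, so the knockout itself was not checked here.

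Tunicamycin blocks N-linked glycosylation, and unfolded glycoproteins then accumulate in the endoplasmic reticulum. The unfolded protein response that follows is run by the sensors IRE1, PERK and ATF6. IRE1 splices the Xbp1 mRNA into the form that encodes the active transcription factor, and in XBP1 knockout cells that output is missing while PERK, ATF6 and the other activities of IRE1 can remain. MicroRNAs are short RNAs that lower the output of mRNAs paired with them, mainly through the seed, bases 2 to 8 from the 5′ end. miRNAs that share a seed can share targets.

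Of 611 mouse miRNAs on the array, 256 were detected on both arrays of at least 1 of the study's groups and were tested. At 24 h, 36 of them (14.1%) passed the threshold, an adjusted p under 0.05 in limma, of which 8 (3.12%) were higher and 28 (10.9%) were lower than in untreated knockout cells. The 3 largest falls were in miR-146b, miR-195 and miR-497, and the 3 largest rises were in miR-196a, miR-155 and miR-720. A group of miRNAs with the miR-15/16 seed or a near copy of it, miR-195, miR-497, miR-322 and miR-503, fell by 2.04 to 2.61 on the log2 scale, while miR-15a, miR-15b and miR-16 did not pass. The mature sequences below, from RefSeq (GRCm38.p6), show this group, with the seed in capitals. They are printed because 3 members that fell and 3 that did not pass share the same 7 seed bases, and miR-503 has 1 other base at the end of its seed.
miR-195: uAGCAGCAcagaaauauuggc
miR-497: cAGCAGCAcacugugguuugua
miR-322: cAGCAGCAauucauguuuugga
miR-503: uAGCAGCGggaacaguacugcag
miR-15a: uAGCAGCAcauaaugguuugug
miR-15b: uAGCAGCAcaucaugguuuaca
miR-16: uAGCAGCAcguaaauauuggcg

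The next pair, which holds the miRNA with the largest fall, differs by 2 substitutions outside the seed, A18G and C21U, counted from 1 at the 5′ end of miR-146b with its base first. Probes may not fully separate 2 RNAs this similar.
miR-146b: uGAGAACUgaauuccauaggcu
miR-146a: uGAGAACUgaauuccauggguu

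The miR-148 and miR-152 family is shown because members with 1 seed differed in whether they passed.
miR-152: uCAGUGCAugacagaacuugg
miR-148b: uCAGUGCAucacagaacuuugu
miR-148a: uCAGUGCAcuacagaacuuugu

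The miRNAs that rose are shown because no 2 of the printed sequences share a seed. miR-31 and miR-31* are the 2 arms of 1 precursor. miR-720 is named without a sequence.
miR-196a: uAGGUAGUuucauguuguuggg
miR-155: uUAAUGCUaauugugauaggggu
miR-31*: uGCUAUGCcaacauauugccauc
miR-23a: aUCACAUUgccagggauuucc
miR-31: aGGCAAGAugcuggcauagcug
miR-25: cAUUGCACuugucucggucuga
miR-24: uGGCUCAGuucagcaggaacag

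Values below are log2 scaled signals, the log2 of an array's summed probe intensity per miRNA with arrays brought to a common 75th percentile of the 95 mouse miRNAs that every one of the 12 arrays detected. Signals under 10.0 were set to that floor, 3.33 on the log2 scale. Differences are 24 h minus untreated and carry their fitted standard error (SE), n = 2 arrays a group. Before scaling, the summed mouse miRNA signal was 35500 and 41900 on the 24 h arrays, against 184000 and 186000 on the untreated arrays, and 146 and 159 mouse miRNAs were detected, against 222 and 210. Each difference is therefore relative to the other miRNAs of its array. For the lower totals, less RNA on the array, weaker labelling, fewer cells and less miRNA per cell cannot be told apart. All untreated arrays of the study lay on 1 slide and all tunicamycin arrays on another, so that slide and treatment cannot be told apart.

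The median log2 difference of all 256 tested miRNAs was 0, and of the 134 that were above the floor on all 4 arrays it was -0.14. Of those 134, 8 were higher and 17 lower. The count was 17 and 19 in place of 36 without the first or the second untreated array, and 63 and 57 without the first or the second 24 h array. In such fits the group left with 1 array is taken to vary like the other groups. With 1 array of any of the 6 groups left out, all 36 kept their sign and 17 passed in each of the 12 fits. Without the first 24 h array the calls for miR-467a, miR-467b, miR-130a, miR-103 and miR-23a were lost (limma adjusted p = 0.0541 to 0.0880), and without the second those for miR-467a, miR-290-5p, miR-484 and miR-374 (limma adjusted p = 0.0716 to 0.156). The calls for miR-146a, miR-467a, miR-103, miR-290-5p, miR-484, miR-374, miR-25, miR-23a and miR-196a, with limma adjusted p from 0.0268 to 0.0464, were also lost in fits without an array of another group (limma adjusted p = 0.0501 to 0.0961). Without scaling, the median of all tested miRNAs was -1.83 and the 8 that rose were negative, although all 8 lay above that median. A normexp background correction, run as an alternative, added an offset of 50 to each spot before scaling, which weighs most on dim miRNAs. With it the median was 1.08 and 20 of the 28 that fell were positive, of which 9 lay at or above that median.

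**Figure D1:**
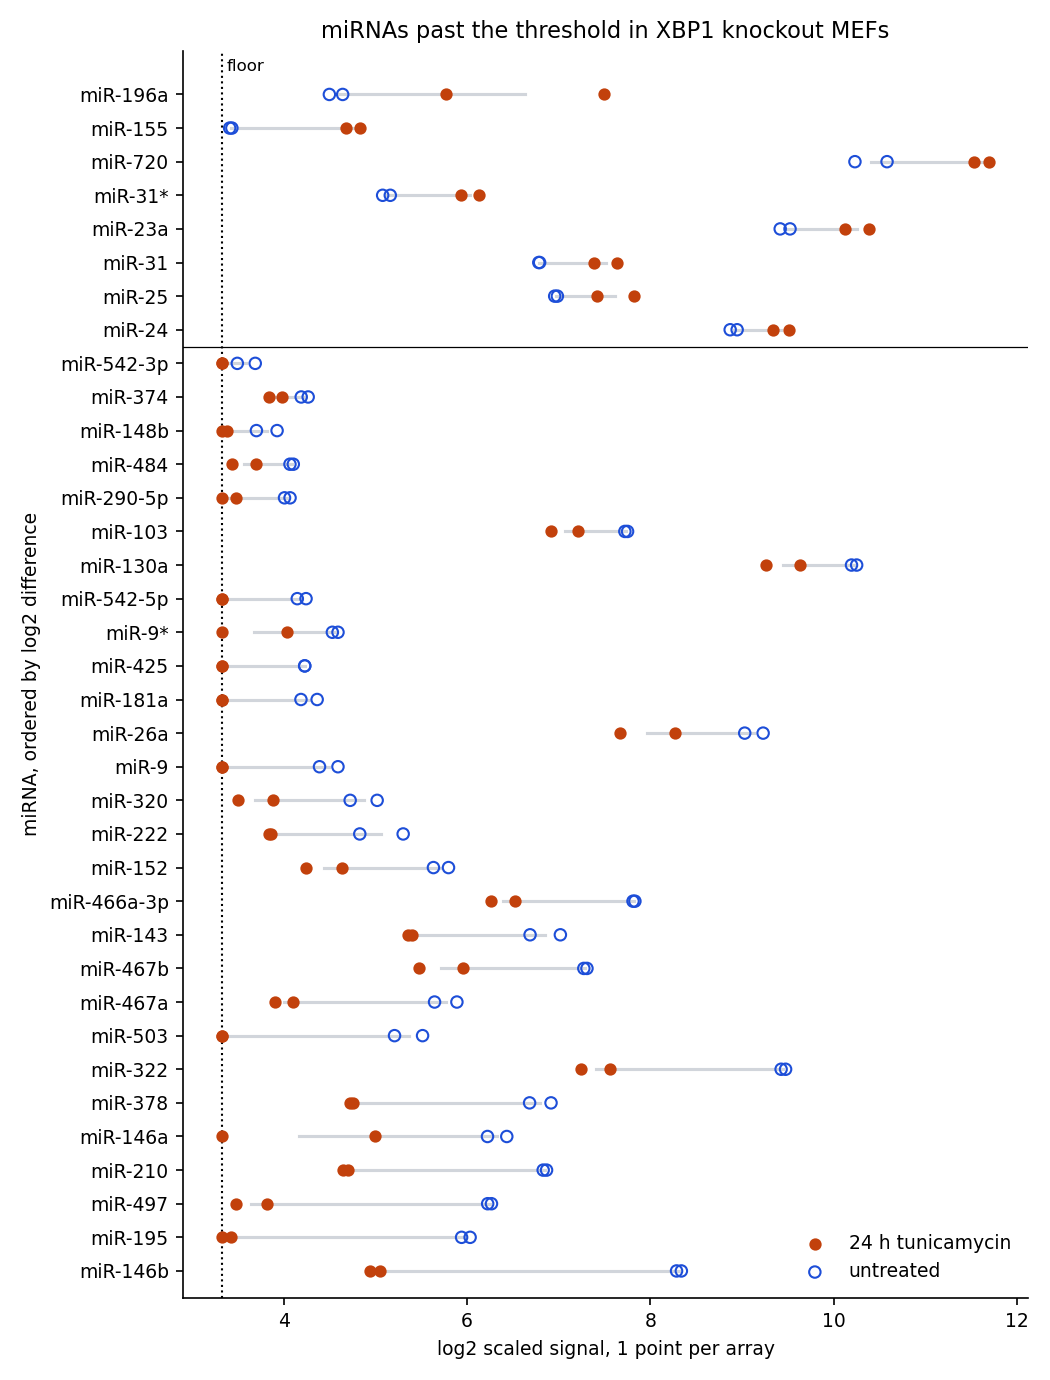
Log2 scaled signal (x axis) of the 36 miRNAs past the threshold in XBP1 knockout MEFs (y axis, ordered by log2 difference), with 1 filled point per 24 h tunicamycin array and 1 open point per untreated array. The grey bar joins the group means and the dotted line is the floor at 3.33. Of the miRNAs that fell, 5 have both 24 h arrays at the floor and 6 have 1 there; without scaling the 8 rises turn negative, and with normexp 20 of the 28 falls turn positive.

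The miR-15/16 seed family restrains the cell cycle, with cyclins and their kinases among its known targets. miR-195 and miR-497 are made from 1 transcript on chromosome 11, and miR-322 and miR-503 lie in a cluster on the X chromosome. miR-195 had log2 scaled signals of 3.33 and 3.43 at 24 h and 5.94 and 6.03 untreated. No 24 h array detected miR-195, and it was at least 6.11-fold lower (log2 difference -2.61, SE 0.22, limma adjusted p = 0.000313). miR-497 had 3.82 and 3.48 at 24 h, with 1 array detecting it, against 6.23 and 6.27 untreated, and was lower by a log2 difference of -2.60 (SE 0.23, limma adjusted p = 0.000413). Both lay near the floor at 24 h and well above it in untreated cells, with no overlap.

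miR-322, the mouse counterpart of human miR-424, had 7.24 and 7.56 at 24 h and 9.42 and 9.47 untreated, a log2 difference of -2.05 (SE 0.32, limma adjusted p = 0.00695). It fell by 4.13-fold while remaining far above the floor on all 4 arrays. miR-503 was at the floor on both 24 h arrays, against 5.21 and 5.52 untreated, and was at least 4.10-fold lower (limma adjusted p = 2.34e-05). Of the 6 tested members of the X chromosome cluster, 4 fell and none rose, against 28 and 8 of all 256 tested. The other members that fell were miR-542-5p, at the floor at 24 h against 4.15 and 4.25 untreated, and miR-542-3p, at the floor against 3.69 and 3.50. With the software's total gene signal in place of the recomputed sum, the log2 differences of miR-542-5p and miR-542-3p were -0.02 and 0. Those of miR-195, miR-322 and miR-503 were then -1.63, -2.23 and -1.42.

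The other tested miRNAs with the seed did not pass, of which miR-15a and miR-16 were chosen for the text after their values were seen. miR-15b had 9.67 and 10.32 at 24 h and 9.58 and 9.60 untreated (log2 difference 0.41, SE 0.20, limma adjusted p = 0.333). miR-15a had 8.75 and 9.39 at 24 h and 9.06 and 8.99 untreated (0.04, SE 0.21). miR-16 had 7.87 and 8.74 at 24 h and 8.31 and 8.39 untreated (-0.05, SE 0.24). For miR-15a and miR-16 the first 24 h array lay below both untreated arrays and the second lay above them. miR-16 thus passed in opposite directions, with 0.39 without the first 24 h array and -0.48 without the second (limma adjusted p = 0.00825 and 0.00516), and miR-15b passed at 0.73 without the first (limma adjusted p = 0.0101). Over the 6 tested members of the family 3 were lower and 3 did not pass, against 28 lower (10.9%) of all 256 tested. Their median log2 difference was -1.05. Under normexp it was 0.19, below the median of all tested miRNAs under that setting.

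**Figure D2:**
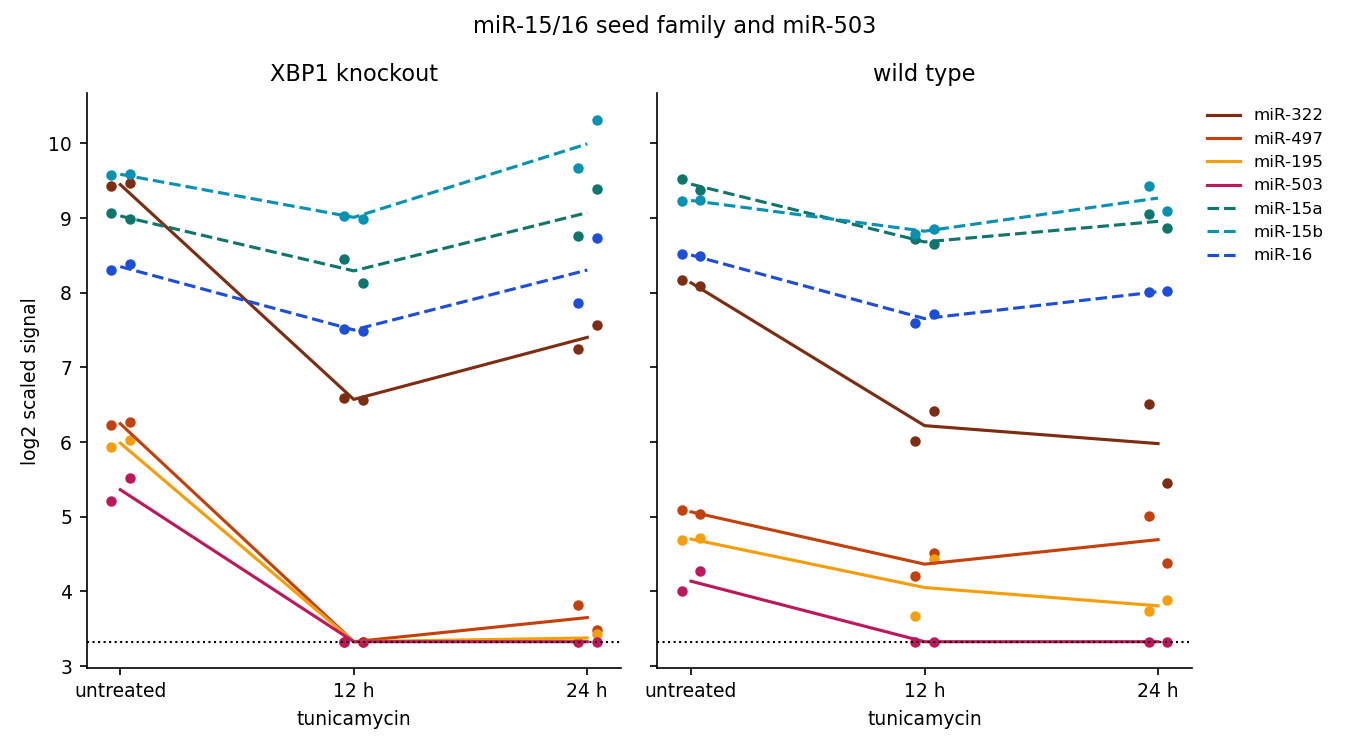
Log2 scaled signal (y axis) of miR-322, miR-497, miR-195 and miR-503 (solid lines) and of miR-15a, miR-15b and miR-16 (dashed lines) in untreated cells and after 12 h and 24 h of tunicamycin (x axis), in XBP1 knockout (left) and wild type MEFs (right). Points are single arrays, lines join group means and the dotted line is the floor at 3.33; in knockout cells the solid lines lie lower at 24 h than untreated, which for miR-195, miR-497 and miR-503 turns round under normexp.

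NF-kB induces both miR-146 miRNAs, which in turn restrain innate immune signals, and miR-155 is a regulator of immune cells that NF-kB and AP-1 can induce. miR-146b had 4.94 and 5.05 at 24 h and 8.28 and 8.34 untreated. It was 9.94-fold lower (log2 difference -3.31, SE 0.41, limma adjusted p = 0.00226), was detected on all 4 arrays, and stayed negative under every alternative run. miR-146a had 5.00 and 3.33 at 24 h and 6.22 and 6.43 untreated (-2.17, SE 0.51, limma adjusted p = 0.0316). Its 2 arrays at 24 h stood far apart, the second at the floor, and both lay below the untreated arrays. Without the first 24 h array the difference was -3.00, without the second it was -1.33, and without either untreated array the call was lost (limma adjusted p = 0.123 and 0.170). miR-155 had 4.84 and 4.68 at 24 h and 3.44 and 3.41 untreated, just above the floor (1.33, SE 0.21, limma adjusted p = 0.00695). It rose where both miR-146 miRNAs fell, and its call was lost without the first or the second untreated array (limma adjusted p = 0.0577 and 0.0563).

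miR-210, miR-378 and miR-143 were lower at 24 h. miR-210, best known for its induction by hypoxia-inducible factors, had 4.65 and 4.70 at 24 h and 6.83 and 6.87 untreated. Its fall was 4.51-fold (log2 difference -2.17, SE 0.11, limma adjusted p = 1.64e-05), and the arrays of a group lay close together. miR-378, which lies in an intron of the metabolic coactivator gene Ppargc1b, had 4.73 and 4.76 at 24 h and 6.68 and 6.92 untreated (-2.06, SE 0.28). miR-143, a miRNA of smooth muscle and fibroblasts, had 5.40 and 5.36 at 24 h and 6.69 and 7.02 untreated (-1.48, SE 0.28). In all 3 the groups did not overlap. For miR-143 the call was lost without the first or the second untreated array (limma adjusted p = 0.0577 and 0.116).

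miR-26a, which targets the Polycomb gene Ezh2, had 7.67 and 8.26 at 24 h and 9.03 and 9.23 untreated (log2 difference -1.16, SE 0.22, limma adjusted p = 0.0138). Its relative miR-26b had 6.38 and 7.20 at 24 h and 6.69 and 6.84 untreated, overlapping between the groups (0.02, SE 0.26). For miR-26a the call was lost without the first or the second untreated array (limma adjusted p = 0.0614 and 0.113). miR-222, which together with miR-221 targets the cell cycle inhibitor p27, had 3.84 and 3.86 at 24 h and 4.83 and 5.30 untreated (-1.22, SE 0.20, limma adjusted p = 0.00742). miR-221, from the same cluster, had 7.76 and 7.39 at 24 h and 7.78 and 7.81 untreated (-0.22, SE 0.26), and did not pass. In each of these pairs 1 member fell and the other did not pass, and a difference between the members was not tested.

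In the miR-148 and miR-152 family, 2 of 3 members fell and none rose, against 28 (10.9%) and 8 (3.12%) of all 256 tested. miR-152 had 4.25 and 4.63 at 24 h and 5.63 and 5.80 untreated (log2 difference -1.28, SE 0.16, limma adjusted p = 0.00226). miR-148b had 3.38 and 3.33 at 24 h and 3.70 and 3.93 untreated, near the floor in both groups (-0.46, SE 0.08). miR-148a had 5.18 and 6.25 at 24 h and 5.91 and 6.22 untreated and did not pass (-0.35, SE 0.33). Its second 24 h array lay above both untreated arrays and its first below them, and it passed at -0.89 without the second (limma adjusted p = 0.0259). miR-130a, a miRNA of blood vessel growth, had 9.26 and 9.63 at 24 h and 10.19 and 10.25 untreated (-0.77, SE 0.17, limma adjusted p = 0.0229), and miR-103, from introns of pantothenate kinase genes, was lower by -0.67 (SE 0.17, limma adjusted p = 0.0449). Both of these calls were lost without the first or the second untreated array (limma adjusted p = 0.103 and 0.129 for miR-130a, 0.194 and 0.235 for miR-103).

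The remaining falls were mostly in miRNAs near the floor. miR-9 and miR-9*, the 2 arms of a precursor best known from the nervous system, were detected on both untreated arrays. miR-9 was at the floor on both 24 h arrays, against 4.39 and 4.59 untreated, and was at least 2.24-fold lower (limma adjusted p = 1.57e-05). Apart from the untreated knockout arrays, every array of the study had miR-9 at the floor. Values at the floor have no spread, so its SE is too small. miR-9* had 4.04 and 3.33 at 24 h and 4.53 and 4.59 untreated (log2 difference -0.88, SE 0.19). Of 8 neural markers 5 were detected on at least 1 of the 4 arrays. The summed scaled signal of the 8 was 91.1 and 70.1 at 24 h, against 116 and 120 untreated. Of the 5 tested, miR-129-3p and miR-129-5p had positive differences and did not pass (0.27, SE 0.24, and 0.33, SE 0.33). miR-128 stayed at the floor, and the median log2 difference of the 5 was 0. The part of other cells in the fall of miR-9 and miR-9* was not tested. miR-181a and miR-425 were not detected at 24 h and were at least 1.93-fold and 1.87-fold lower. miR-320, miR-484, miR-374 and the embryonic stem cell miRNA miR-290-5p made up the rest with the miR-466 and miR-467 members given below, with log2 differences from -1.18 for miR-320 to -0.32 for miR-374. The calls for miR-9*, miR-290-5p, miR-484 and miR-374 were lost without the first or the second untreated array (limma adjusted p = 0.0975 to 0.202). With the software's total gene signal in place of the recomputed sum, miR-152, miR-222, miR-320, miR-374, miR-467a and miR-484 turned positive (1.69, 0.95, 1.26, 1.07, 1.57 and 0.05). The log2 differences of miR-9, miR-9*, miR-181a and miR-425 were then -0.14, -0.21, -0.72 and 0. The at-least folds given above therefore hold for the recomputed sum only.

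**Figure D3:**
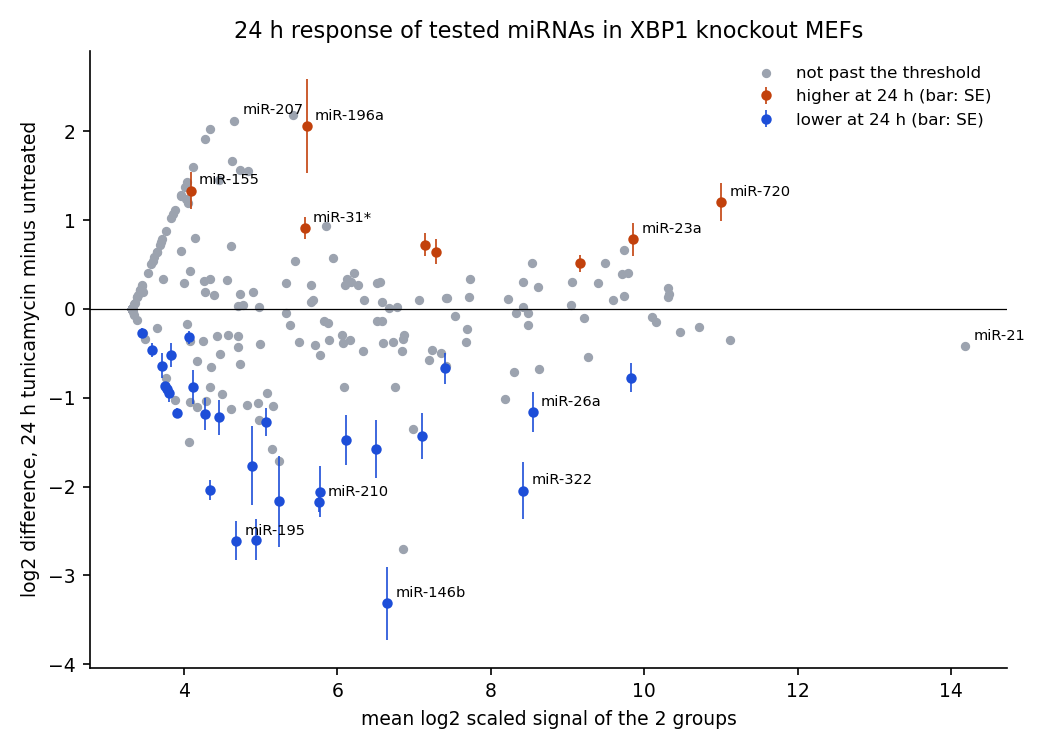
Log2 difference, 24 h tunicamycin minus untreated (y axis), against the mean log2 scaled signal of the 2 groups (x axis) for the 256 tested miRNAs in XBP1 knockout MEFs. Coloured points passed the threshold, with the SE as a bar, and grey points did not; the calls run from -3.31 for miR-146b to 2.06 for miR-196a, and the grey points that rise steeply at the left are miRNAs at or near the floor in untreated cells. Without scaling the rises turn negative, and with normexp 20 of the 28 falls turn positive.

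The 8 miRNAs that rose were above the floor on all 4 arrays. miR-196a, which lies in the Hox gene clusters, had 5.77 and 7.49 at 24 h and 4.50 and 4.64 untreated (log2 difference 2.06, SE 0.53, limma adjusted p = 0.0449). Its 24 h arrays stood more than 1 log2 unit apart, both above the untreated ones. Without the first 24 h array the difference was 2.92 and without the second 1.20, and without the first or the second untreated array the call was lost (limma adjusted p = 0.202 and 0.183). miR-720, now regarded as a fragment of a transfer RNA, had 11.70 and 11.52 at 24 h and 10.23 and 10.58 untreated (1.21, SE 0.22, limma adjusted p = 0.0117). It did not pass without the first untreated array (limma adjusted p = 0.0885).

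Both arms of the miR-31 precursor rose. miR-31, a miRNA of mesenchymal and epithelial cells, had 7.39 and 7.64 at 24 h and 6.78 and 6.79 untreated (log2 difference 0.73, SE 0.13, limma adjusted p = 0.00984). miR-31* had 6.14 and 5.93 at 24 h and 5.08 and 5.16 untreated (0.91, SE 0.13, limma adjusted p = 0.00376). For both arms the 24 h arrays lay above the untreated ones and the replicates lay close together. The call for miR-31 was lost without the first or the second untreated array (limma adjusted p = 0.0648 and 0.0589), and that for miR-31* in no fit with 1 array left out.

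From the miR-23/27/24 clusters, whose miRNAs act in blood vessels, muscle and the cell cycle, 2 of 5 members rose and none fell, against 8 (3.12%) and 28 (10.9%) of all 256 tested. Their median log2 difference was 0.51, and that of all tested miRNAs was 0. miR-23a had 10.38 and 10.12 at 24 h and 9.41 and 9.52 untreated (0.79, SE 0.19, limma adjusted p = 0.0324). miR-24 had 9.33 and 9.51 at 24 h and 8.87 and 8.95 untreated (0.51, SE 0.09, limma adjusted p = 0.0120). Their cluster partner miR-27a had 10.25 and 9.88 at 24 h and 9.36 and 9.44 untreated, also without overlap, and did not pass (0.66, SE 0.21, limma adjusted p = 0.103). miR-27b, from the paralogous cluster, had 6.03 and 7.43 at 24 h and 6.93 and 7.11 untreated and lay on both sides of them. It passed at -0.99 without the second 24 h array (limma adjusted p = 0.00757). The calls for miR-23a and miR-24 were lost without the first or the second untreated array (limma adjusted p = 0.183 and 0.129 for miR-23a, 0.0954 and 0.0563 for miR-24). Under normexp both were positive and below the median of all tested miRNAs.

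miR-25, of the miR-106b/25 cluster in the Mcm7 gene, had 7.42 and 7.82 at 24 h and 6.99 and 6.96 untreated (log2 difference 0.65, SE 0.15, limma adjusted p = 0.0268). PERK signalling has been reported to lower this cluster, and loss of the cluster to allow the cell death factor Bim to rise. Its cluster partner miR-106b had 7.51 and 8.30 at 24 h and 7.54 and 7.59 untreated, and miR-93 had 6.57 and 6.67 at 24 h and 6.53 and 6.56 untreated. Neither passed (0.34, SE 0.22, and 0.07, SE 0.11), although both 24 h arrays of miR-93 lay just above the untreated ones. Without the first 24 h array miR-106b passed at 0.73 (limma adjusted p = 0.0011). The call for miR-25 was lost without the first or the second untreated array (limma adjusted p = 0.128 and 0.155).

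miRNAs tied to the unfolded protein response were given as lists. The RNase of IRE1 has been reported to cleave the precursors of miR-34a, miR-96 and miR-125b. Of the 4 miRNAs of this list on the array, these 3 were tested. None of these 3 passed in limma, and none had an unadjusted p under 0.05, which 57 of all 256 tested (22.3%) had. miR-34a had 8.05 and 6.94 at 24 h and 7.86 and 7.88 untreated (log2 difference -0.37, SE 0.31), with 1 array of 24 h on either side of the untreated ones, and passed at -0.92 without the first 24 h array (limma adjusted p = 0.00107). miR-125b-5p had 10.88 and 11.01 at 24 h and 11.26 and 11.33 untreated (-0.34, SE 0.15), lower on both arrays, and miR-96 had 7.71 and 7.27 at 24 h and 7.53 and 7.61 untreated (-0.08, SE 0.21). Of 10 tested miRNAs linked to PERK, ATF6 or CHOP, miR-25 rose, miR-222 fell and 8 did not pass. Of all 256 tested, 8 (3.12%) rose and 28 (10.9%) fell. The median of the 10 was 0.04 (-1.91 without scaling). Among the 8 linked miRNAs that did not pass, miR-199a-5p, which targets ATF6 in liver cells, had 7.50 and 8.40 at 24 h and 8.61 and 8.71 untreated (-0.71, SE 0.29). miR-214 had 8.67 and 9.33 at 24 h and 9.58 and 9.50 untreated (-0.54, SE 0.35). For miR-199a-5p and miR-214 both 24 h arrays lay below both untreated ones, and miR-199a-5p passed at -1.17 without the second 24 h array (limma adjusted p = 0.0113).

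None of the 9 let-7 members, which mark differentiated cells, passed in limma or had an unadjusted p under 0.05, and their median log2 difference was 0.23. let-7e had 9.78 and 9.73 at 24 h and 9.26 and 9.21 untreated (0.52, SE 0.22, limma adjusted p = 0.226), and it lay higher on both 24 h arrays. None of the 5 miR-30 members passed, with a median of -0.38, and 3 had an unadjusted p under 0.05, against 57 (22.3%) of all 256. miR-30b had 4.45 and 4.79 at 24 h and 5.40 and 5.72 untreated, without overlap (-0.94, SE 0.28, limma adjusted p = 0.0801), and miR-30c passed at -0.66 without the second 24 h array (limma adjusted p = 0.0475). None of the 3 miR-29 members, 7 members of the miR-17/92 clusters or 16 members of the Dlk1-Dio3 imprinted cluster passed, with medians of 0.15, 0.10 and 0, and 0, 0 and 1 of them had an unadjusted p under 0.05. In the Dlk1-Dio3 cluster, miR-494 had 4.28 and 4.50 at 24 h and 5.75 and 6.45 untreated (-1.71, SE 0.64, limma adjusted p = 0.163), and it passed without the first or the second wild type array at 24 h (limma adjusted p = 0.0158 and 0.015). Without scaling the let-7, miR-29 and miR-17/92 medians turned negative, to -1.88, -1.97 and -2.01, near the median of all tested miRNAs under that setting, and under normexp the miR-30 median was 0.37.

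**Figure D4:**
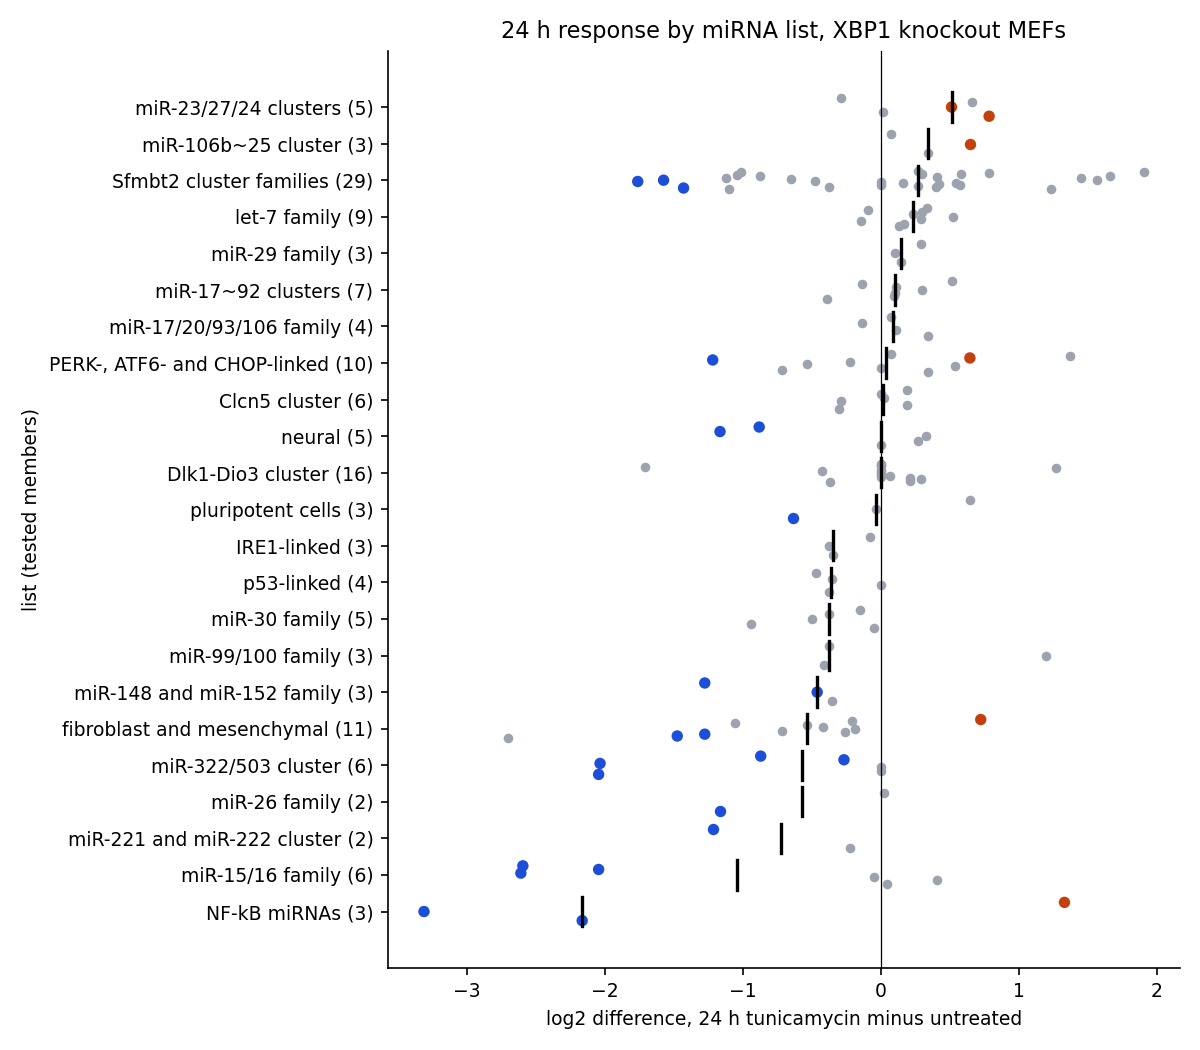
Log2 difference, 24 h tunicamycin minus untreated (x axis), of the tested members of 23 lists of miRNAs in XBP1 knockout MEFs (y axis, number of tested members in parentheses). Each point is 1 miRNA, orange where it rose, blue where it fell and grey where it did not pass, and the black bar is the list's median; medians run from -2.17 for the NF-kB miRNAs, positive under normexp, to 0.51 for the miR-23/27/24 clusters, negative without scaling.

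All 12 fibroblast and mesenchymal markers were detected on at least 1 of the 4 arrays. Their summed scaled signal was 20900 and 20100 at 24 h, against 27400 and 26600 untreated, and most of it was miR-21, which did not pass. None of the 7 epithelial, 7 blood or 1 liver markers was detected on any of the 4 arrays, 1 of 2 endothelial and 1 of 4 muscle markers were, and 2 of 18 pluripotency markers were. Among the 11 tested fibroblast markers miR-31 rose and miR-143 and miR-152 fell, against 8 (3.12%) and 28 (10.9%) of all 256 tested. Their median log2 difference was -0.54. miR-21, the growth-promoting miRNA typical of cultured fibroblasts, had 14.06 and 13.88 at 24 h and 14.42 and 14.36 untreated (-0.42, SE 0.20, limma adjusted p = 0.304), lower on both 24 h arrays. miR-199a-3p had 9.95 and 10.71 at 24 h and 10.60 and 10.59 untreated, overlapping between the groups. The share of these values due to a change in the cells present was not tested.

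The 2 arrays at 24 h stood apart from each other. Of the 256 tested miRNAs, 50 were more than 1 log2 unit higher on the second array than on the first and 25 more than 1 lower, with a median absolute difference of 0.38. On the untreated arrays 2 were more than 1 apart, with a median absolute difference of 0.042. Spike-in controls, given in the file headers as log10 signals, were 2.08 and 2.18 for labelling and 3.27 and 2.98 for hybridisation at 24 h, against 2.46 and 2.11 and 2.95 and 3.01 untreated. Among the miRNAs that passed, miR-146a and miR-196a were more than 1 apart at 24 h.

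This split ran through the miR-466, miR-467, miR-669 and miR-297 families, which lie in a large rodent cluster in an intron of Sfmbt2. Of 29 tested members, 16 were more than 1 log2 unit higher on the second 24 h array than on the first and none was more than 1 lower. miR-466f-3p, named after its values were seen, had 3.33 and 9.15 at 24 h and 6.35 and 5.58 untreated, so that its 24 h arrays lay below and above both untreated ones. At 12 h in knockout cells it had 11.06 and 10.64. In wild type cells at 24 h it had 6.47 and 9.27, also higher on the second array, while miR-467a had 5.01 and 3.49 there. At 24 h the first arrays of both genotypes shared 1 scan and the second arrays another, and the part of the scan in this split was not tested. No member rose in limma and 3 fell, against 8 (3.12%) and 28 (10.9%) of all 256 tested. An unadjusted p under 0.05 was found for 8, against 57 (22.3%) of all 256. The median log2 difference of the members was 0.27, and miR-669a had -1.31 without the second 24 h array. The list's median was 0.79 without the first 24 h array and -0.92 without the second. With each array on its own, the list's median thus had opposite signs.

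In the 3 members that fell, both 24 h arrays lay below both untreated ones. miR-467a had 3.91 and 4.10 at 24 h and 5.65 and 5.89 untreated (log2 difference -1.76, SE 0.44, limma adjusted p = 0.0416). miR-467b had 5.48 and 5.95 at 24 h and 7.31 and 7.27 untreated (-1.58, SE 0.33, limma adjusted p = 0.0209). miR-466a-3p had 6.52 and 6.26 at 24 h and 7.81 and 7.83 untreated (-1.43, SE 0.26, limma adjusted p = 0.0120). All 3 calls were lost without the first or the second untreated array (limma adjusted p = 0.137 and 0.207 for miR-467a, 0.116 in both fits for miR-467b, 0.0725 and 0.0744 for miR-466a-3p). Members of these families differ by few bases, so signal may be shared between their probes.

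**Figure D5:**
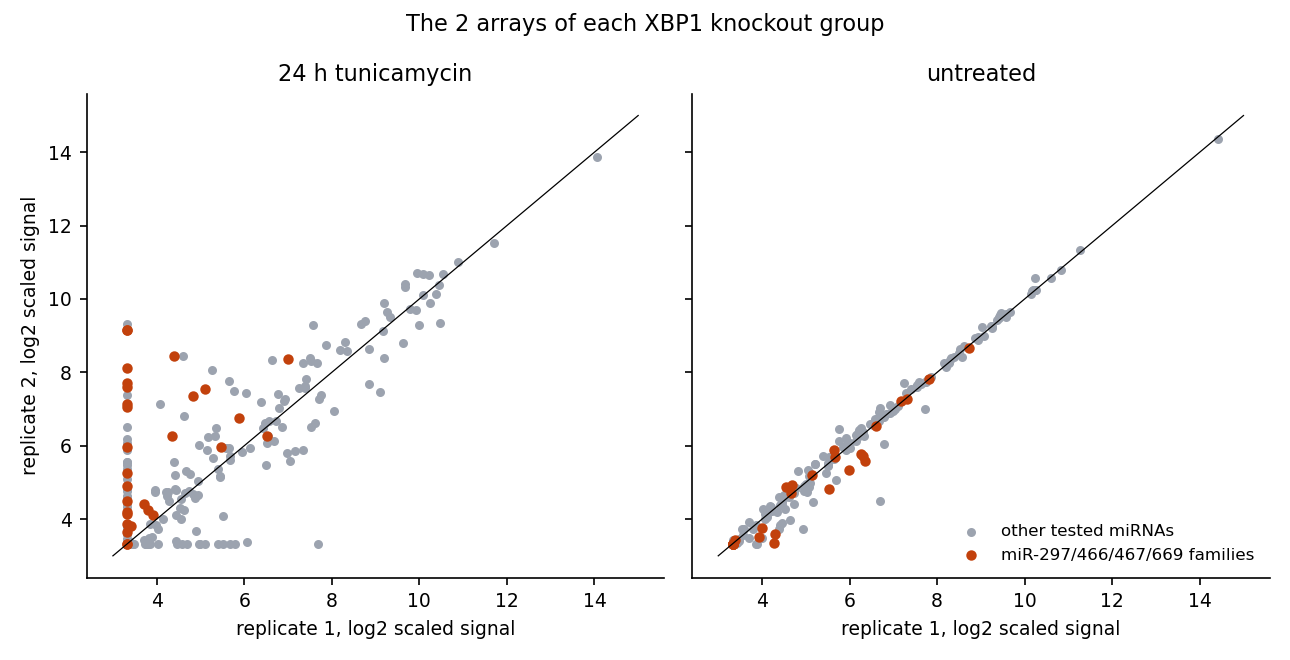
Log2 scaled signal of the 256 tested miRNAs on the second array (y axis) against the first (x axis) of knockout cells at 24 h of tunicamycin (left) and untreated (right), with the line of equal values. Orange points are the 29 tested members of the miR-466, miR-467, miR-669 and miR-297 families; at 24 h 16 of them lie more than 1 log2 unit above the line, and on the untreated arrays the points follow the line.

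The same treatment in wild type cells gave a test of whether the knockout response differs. Before scaling, the summed signal of the wild type arrays was 14100 and 32700 at 24 h, against 94800 and 108000 untreated. They detected 120 and 158 mouse miRNAs at 24 h, against 193 and 199 untreated. The first wild type 24 h array had the lowest total of the study, and its part in the results below was not tested beyond leaving it out. In wild type cells 45 of 256 tested miRNAs (17.6%) passed at 24 h, 7 higher (2.73%) and 38 lower (14.8%). Of the 36 that passed in knockout cells 25 (69.4%) also passed in wild type, which is 55.6% of the wild type calls, and all 25 moved the same way. The 23 that fell in both included miR-146b, with log2 differences of -3.31 in knockout and -3.34 in wild type cells, and miR-322, with -2.05 and -2.15. miR-31 and miR-31* rose in both. In both genotypes the treated and untreated arrays lay on different slides, and the part of the slide in these shared calls was not tested.

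The difference between the responses, knockout minus wild type, passed for 12 of 256 miRNAs (4.69%), 7 positive (2.73%) and 5 negative (1.95%), and 30 (11.7%) had an unadjusted p under 0.05. Of the 12, 8 also passed in knockout cells at 24 h, a test that uses the same knockout arrays. The largest difference was in miR-497, whose log2 differences were -2.60 in knockout and -0.37 in wild type cells (knockout minus wild type -2.22, SE 0.33, limma adjusted p = 0.0103). Its cluster partner miR-195 had -2.61 in knockout and -0.89 in wild type cells (-1.72, SE 0.31, limma adjusted p = 0.0266). For miR-503 the difference was -1.23 (SE 0.16, limma adjusted p = 0.00566) with all 24 h arrays of both genotypes at the floor. It therefore comes from the untreated arrays alone, where miR-503 was higher in knockout than in wild type cells by 1.23. A larger fall in knockout cells cannot be read from it. For miR-322 the responses did not pass as different (0.11, SE 0.46, limma adjusted p = 1). The call for miR-195 was lost in 7 of the 12 fits with 1 array left out, with limma adjusted p up to 0.0965. With outlier spots kept the difference for miR-195 was -0.22 and did not pass, and with the total gene signal that for miR-503 was 0.78.

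Levels before treatment differed between untreated knockout and wild type cells for 32 of 256 tested miRNAs (12.5%). miR-497 had 6.23 and 6.27 in untreated knockout cells and 5.09 and 5.04 in untreated wild type cells (log2 difference 1.18, SE 0.23, limma adjusted p = 0.0150). At 24 h it had 3.82 and 3.48 in knockout cells and 5.00 and 4.38 in wild type cells, lower in knockout (-1.04, SE 0.23, limma adjusted p = 0.0418), in a comparison that called 20 of 256 (7.81%). miR-195 was likewise higher in untreated knockout cells, by 1.29 (SE 0.22, limma adjusted p = 0.00948), and at 24 h had 3.33 and 3.43 in knockout and 3.73 and 3.88 in wild type cells (-0.43, SE 0.22, limma adjusted p = 0.367). miR-9 was at the floor on all wild type arrays at 24 h and untreated, so that its difference between the responses, -1.17, equals its fall in knockout cells.

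miR-155 and miR-152 differed the other way. miR-155 had 4.84 and 4.68 at 24 h and 3.44 and 3.41 untreated in knockout cells, against 6.18 and 5.99 at 24 h and 6.21 and 6.27 untreated in wild type cells. It rose in knockout cells and had a log2 difference of -0.16 in wild type cells, a difference between the responses of 1.49 (SE 0.30, limma adjusted p = 0.0361), and stayed below the wild type level at 24 h by a log2 difference of -1.33 (SE 0.21, limma adjusted p = 0.00976). The call for this difference was lost in 7 of the 12 fits with 1 array left out, with limma adjusted p up to 0.138 without the first untreated knockout array. miR-152 fell less in knockout cells, by -1.28, than in wild type cells, by -2.68, where 24 h arrays had 3.33 and 3.41 (difference 1.40, SE 0.22, limma adjusted p = 0.0125). Without scaling that difference was -0.05, and the call was lost without either knockout array at 12 h (limma adjusted p up to 0.0552). Leaving out values at the floor, 2 of 118 miRNAs passed for the difference between the responses, and with 1 array left out between 7 and 44 of 256 did, with 44 and 20 when the first or second 24 h knockout array was left out and 7 without either knockout array at 12 h.

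At 12 h the knockout cells differed from untreated ones in 126 of 256 miRNAs (49.2%), in a comparison that shares the untreated arrays with the one at 24 h. The values at each time are therefore given side by side. miR-146b averaged 8.31 untreated, 4.12 at 12 h and 5.00 at 24 h. miR-322 averaged 9.45 untreated, 6.57 at 12 h and 7.40 at 24 h, and miR-210 averaged 6.85, 4.04 and 4.68. For all 3 the mean at 12 h was below that at 24 h. miR-503, miR-9, miR-181a, miR-542-5p and miR-542-3p were at the floor on all 12 h and 24 h arrays.

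The level at 24 h was tested against that at 12 h directly, and 101 of 256 miRNAs (39.5%) passed, 45 higher (17.6%) and 56 lower (21.9%) at 24 h. Leaving out the first 12 h knockout array gave 58, and leaving out the second gave 35. Of the miRNAs that fell at 24 h against untreated cells, miR-210 was higher at 24 h than at 12 h by a log2 difference of 0.64 (SE 0.11, limma adjusted p = 0.00519), miR-152 by 1.11 (SE 0.16, limma adjusted p = 0.00352) and miR-103 by 0.88 (SE 0.17, limma adjusted p = 0.00922). miR-26a, miR-130a and miR-374 were also higher at 24 h, by 0.68, 0.72 and 0.54. miR-466a-3p and miR-290-5p were lower at 24 h than at 12 h, by -1.02 (SE 0.26) and -0.99 (SE 0.14).

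Among the miRNAs that rose, miR-24, miR-25, miR-31 and miR-31* were higher at 24 h than at 12 h. miR-25 had 7.42 and 7.82 at 24 h and 6.87 and 6.70 at 12 h (log2 difference 0.83, SE 0.15, limma adjusted p = 0.00571). miR-24 was higher by 0.59 (SE 0.09, limma adjusted p = 0.00443), miR-31 by 0.52 (SE 0.13, limma adjusted p = 0.0187) and miR-31* by 0.66 (SE 0.13, limma adjusted p = 0.00836). miR-155 and miR-196a did not pass between the times (0.36, SE 0.21, and 1.26, SE 0.53). miR-196a averaged 4.57 untreated, 5.37 at 12 h and 6.63 at 24 h.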

How the data were processed

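Cy3-labelled total RNA was measured on 1-colour Agilent miRNA arrays, per the labels' protocols. The deposited files hold spot intensity values from Agilent Feature Extraction 10.7.1.1, background-subtracted and detrended, per the file headers, with no normalization between arrays. The deposited series table holds log2 values, which match log2 total gene signals from that software within 1.15e-06. Other steps by the authors are not given in the sources used here.

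Control and outlier spots were left out, spots were averaged per probe and probes summed per miRNA. Each array was scaled to its 75th percentile over 95 miRNAs, and signals were floored at 10.0, the 5th percentile of detected ones, before log2. Values at the floor have no spread, so the SE of dim miRNAs is too small. Of 611 mouse miRNAs 256 were tested. The 39 viral miRNAs were left out. limma 3.58.1 (R 4.3.3) fitted 1 mean per group to 12 arrays (lmFit, eBayes with an intensity trend, 6 residual degrees of freedom, prior 0.981), with Benjamini-Hochberg adjusted p-values within each of 7 comparisons. The code was tested on simulated data. Figures were drawn with matplotlib 3.10.9 in Python 3.11.15. "At least N-fold" sets the brighter group against the floor, or a higher detection limit or signal, of a group in which no array detected the miRNA. These bounds hold for the recomputed sum, and with the total gene signal several of these differences were smaller. Where the text says that values do not pass, a change is not excluded.

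Alternatives covered scaling, background, floor, filters, the arrays fitted, scan as a block, replicate blocks and leaving out 1 array. The miRNAs named were the 15 largest rises and falls that passed, up to 4 per list by p, those that passed in 2 tests, and the 10 brightest. The samples, lists and alternatives were chosen with earlier results of these data known. Array names are those of the design, and 29 of the 36 miRNAs that passed matched a RefSeq mature sequence (GRCm38.p6).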

Additional observations from a re-analysis of the deposited data

Results flagged for a closer look

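The log2 differences between the responses of knockout and wild type cells at 24 h, knockout minus wild type, that passed limma's test of that difference were -2.22 for miR-497, -1.72 for miR-195, -1.23 for miR-503, -1.17 for miR-9, -0.83 for miR-337-5p, 0.22 for miR-542-5p, 0.67 for miR-532-3p, 0.82 for miR-374, 1.35 for miR-335-5p, 1.40 for miR-152, 1.45 for miR-532-5p and 1.49 for miR-155. miR-532-3p was at the floor on all knockout arrays at 24 h and untreated, and miR-335-5p was too, so that their differences come from the wild type arrays alone. On all 24 h arrays of both genotypes miR-503 and miR-542-5p were at the floor, so that their differences come from the untreated arrays alone. miR-335-5p had 3.33 and 3.58 at 24 h and 4.73 and 4.89 untreated in wild type cells. miR-532-5p had 3.33 and 3.81 at 24 h and 3.34 and 3.42 untreated in knockout cells, against the floor at 24 h and 4.60 and 4.57 untreated in wild type cells. miR-337-5p had 3.46 and 3.33 at 24 h and the floor untreated in knockout cells, against 4.38 and 4.07 at 24 h and the floor untreated in wild type cells. The calls for miR-195, miR-337-5p and miR-155 were lost in 7 of the 12 fits with 1 array left out, that for miR-542-5p in 8 and that for miR-152 in 2. Those for miR-497, miR-503, miR-9, miR-532-3p, miR-374, miR-335-5p and miR-532-5p passed in all 12.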

How the results depend on the processing

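The limits are the 2 arrays a group, the 24 h arrays that stand apart, the 5-fold lower totals at 24 h and the slide that holds each treatment. In knockout cells at 24 h 36 miRNAs passed. With outlier spots kept 34 passed, 33 of them among the 36 with the same sign, with quantile normalization 26 (20 of the 36), with the floor doubled 30 (25), without the intensity trend 38 (35), with scan as a random block 36 (36), and leaving out values at the floor 29 of 134 tested (23). The count moved to 16 with a percentile over all mouse miRNAs, 173 (none higher) without scaling, 188 (178 higher) with normexp, 59 with the total gene signal or the deposited series table, 15 of 95 among miRNAs detected on all 12 arrays, 23 over all mouse miRNAs, 18 from the 6 knockout arrays and 3 from the 4 compared arrays. With 1 array left out it ran from 17 to 63. The differences between the responses moved from 12 to 24 without scaling, 2 with normexp, 24 with the total gene signal or series table, 2 with values at the floor left out, 1 among miRNAs detected on all 12 arrays and 7 over all mouse miRNAs, and ran from 7 to 44 with 1 array left out. For 24 h against 12 h, 101 moved to 34 without scaling, 43 with normexp, 57 with values at the floor left out, 57 among miRNAs detected on all 12 arrays and 63 from the 6 knockout arrays, and ran from 35 to 110. Same-numbered 24 h and untreated arrays deviated in opposite directions (r = -0.41 over 256 miRNAs). With 2 arrays a group this cannot show whether the numbers pair them, and the main fit did not pair them. With the replicate block 33 passed, with crossed numbers, an alternative chosen after seeing the data, 33 passed, and the block gave 13 and 96 for the other 2 comparisons. The normexp setting used median signals with an offset of 50 and was chosen after seeing the data. The mean signals the alternative was written for were not among the columns, so that version was not run.

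In the signs, without scaling, where the median of all tested miRNAs moved by -1.83, differences against untreated cells turned negative for miR-24 (-1.61), miR-25 (-1.47), miR-31 (-1.39), miR-23a (-1.33), miR-31* (-1.21), miR-720 (-0.91), miR-155 (-0.79), miR-196a (-0.060), let-7e (-1.60), let-7g (-1.82), let-7b (-1.95), let-7d (-1.82), miR-15b (-1.71), miR-15a (-2.07), miR-106b (-1.78), miR-93 (-2.05), miR-26b (-2.10), miR-27a (-1.46), let-7a (-1.98), let-7f (-1.88) and miR-29a (-1.97). With normexp, where it moved by 1.08, they turned positive for miR-195 (0.43), miR-497 (0.33), miR-146a (0.25), miR-378 (0.018), miR-503 (0.68), miR-467a (0.62), miR-143 (0.094), miR-152 (0.69), miR-222 (0.97), miR-320 (1.05), miR-9 (1.08), miR-181a (1.12), miR-425 (1.13), miR-9* (1.098), miR-542-5p (1.47), miR-290-5p (1.49), miR-484 (1.16), miR-148b (1.13), miR-374 (1.21), miR-542-3p (1.07), miR-30b (0.81), miR-30e (0.82) and miR-148a (0.73). With the total gene signal and the series table alike they turned positive for miR-467a (1.57), miR-152 (1.69), miR-222 (0.95), miR-320 (1.26), miR-484 (0.048), miR-374 (1.07) and miR-30e (1.01). For miR-16 the difference ran from -0.48 to 0.39 with 1 array left out, positive without the first 24 h array. Between the responses, signs turned without scaling for miR-337-5p (0.20), miR-542-5p (-0.53), miR-374 (-0.51) and miR-152 (-0.050), with normexp for miR-335-5p (-0.11), with the total gene signal and series table for miR-503 (0.78) and miR-337-5p (1.21), with a percentile over all mouse miRNAs for miR-542-5p (-0.17) and with quantile normalization for miR-542-5p (-0.088). For 24 h against 12 h they turned for miR-290-5p with quantile normalization (0.15) and normexp (0.13), miR-374 without scaling (-0.16) and miR-466a-3p with a percentile over all mouse miRNAs (0.038). The causes were not tested.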

Other observations

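Of the 35 tested arms named with an asterisk, as a rule the less abundant strand of a precursor, 10 were above the floor on all 4 knockout arrays at 24 h and untreated. Of the 35, miR-31* rose, miR-9* fell and 33 did not pass, against 8 (3.12%) that rose and 28 (10.9%) that fell of all 256 tested. They had 3 at an unadjusted p under 0.05, against 57 (22.3%) of all 256. Their median log2 difference was 0, as over all tested miRNAs. miR-877*, which did not pass, had the largest difference among them (2.18, SE 1.23, limma adjusted p = 0.434), and passed at 4.10 without the first 24 h array (limma adjusted p = 0.0217).

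The Clcn5 intronic cluster on the X chromosome, with miR-532, miR-362 and miR-500, had 6 tested members, of which none passed in limma or had an unadjusted p under 0.05 in knockout cells, with a median log2 difference of 0.01. The 4 tested members of the p53-linked miR-34 family did not pass either, with a median of -0.36, 0.16 without the second 24 h array, and none had an unadjusted p under 0.05.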
